A study of Mus with 15 samples.

Results

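Thymic CD4 T cells that carried the surface protein BST2 were compared with 3 BST2-negative gates of the regulatory T cell (Treg) lineage. The comparison used 12 of the 15 bulk RNA-seq libraries of the series, chosen by their sort gate: the 3 Bst2+ libraries stood against 9 comparator libraries, 3 each of CD25+ progenitors, FOXP3lo progenitors and mature Tregs. All cells came from the thymus of female mice of a cross of C57Bl/6 with Foxp3-GFP, a reporter of FOXP3, at 6 weeks of age, and were sorted as live cells with T cell receptor (TCR) beta and CD4, without CD8 and without the ecto-enzyme CD73. The CD25+ progenitor gate was BST2-negative with CD25 and without FOXP3, the FOXP3lo progenitor gate BST2-negative with low FOXP3 and without CD25, and the mature Treg gate BST2-negative with both. BST2-positive cells were collected where they had CD25, FOXP3 or both, so this gate can mix the 3 phenotypes, and the share of each is not given in the sources used here. The thymus was dissociated mechanically, CD8-bearing cells were removed on magnets, and cells were sorted on a BD FACSAria II into lysis buffer for a stranded total RNA kit with picogram-range input. Each gate had 3 libraries, numbered 40, 42 and 43, from 3 biological replicates of 1 sorting experiment. The labels do not say whether a replicate was 1 mouse or a pool, so p-values measure only the spread between these samples. The remaining 3 libraries were conventional CD4 single-positive cells that were BST2-, CD25- and FOXP3-negative. They entered the filter on low counts, the scaling and the estimate of spread, but not the comparison, and are given in places as a reference level.

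BST2, also called tetherin, holds budding enveloped viruses at the cell surface. Its gene is induced by interferon, and the protein is also abundant on plasmacytoid dendritic cells and plasma cells. Tregs arise in the thymus from CD4 single-positive thymocytes whose strong TCR signal induces CD25 and receptors of the TNF family. IL-2, acting through CD25, the IL-2 receptor beta chain and STAT5, then favours FOXP3, the transcription factor that defines the lineage. Thymic macrophages engulf the many thymocytes that die during selection and express complement C1q, scavenger receptors and lipid-handling genes.

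Levels are counts per 1000000 counts of a library (CPM), with library sizes adjusted by the TMM method, and values for the Bst2+ gate are given in the order of libraries 40, 42 and 43. The Bst2+ libraries held 10816064, 12928802 and 15616995 assigned counts, and the 9 comparator libraries 12597114 to 19016884. Libraries of the Bst2+ gate resembled each other less than those of any other gate: the Pearson correlation of log2 CPM across genes between replicates was 0.829 to 0.856 in Bst2+ and 0.956 to 0.975 in the other 4 gates. The biological coefficient of variation was 0.947 in Bst2+ and 0.149 to 0.240 in the other gates. Of the 16069 genes tested, 984 were at 0 in 1 Bst2+ library while reaching at least 5 CPM in another, against 1 or 2 genes in each other gate. Fewer genes had any count in the Bst2+ libraries, 14685 to 17198, than in the comparators, 18355 to 21010. The share of counts from mitochondrial ribosomal RNA was 14.1% to 19.6% in Bst2+ and 9.59% to 11.2% in the comparators. A gene was therefore called only where its Benjamini-Hochberg adjusted p was under 0.05 with the same sign in both of 2 tests, edgeR's quasi-likelihood test and limma-voom with a spread of its own for each gate, which gave a Bst2+ library a weight of 0.207 against 1.33 to 1.78 elsewhere. Log2 fold changes are Bst2+ over the mean of the 3 gates taken on the log2 scale, ± the standard error of the edgeR fit. Where the gates differ widely, this mean lies below the mean of their CPM. The edgeR error rests on 1 spread shared by all gates and can understate that of Bst2+. In limma, with a spread per gate, the error was larger for many genes (Tnfrsf25 0.79 against 0.22) and smaller for some (Gzma 0.51 against 0.57).

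The sort genes were read at the RNA level before anything else. Bst2 (ENSMUSG00000046718, GRCm38 chromosome 8, 71534255 to 71537456) measured 50.3, 18.4 and 15.7 CPM in Bst2+, and 11.3 to 18.3 (median 12.6) CPM over the 9 comparator libraries. Library 40 stood above every other library, library 42 was level with the highest comparator and library 43 lay inside their range. The log2 fold change of 1.03 ± 0.27 was not called (edgeR adjusted p = 0.00697, limma adjusted p = 0.182), and it was 0.31 without Bst2+ library 40. By label the gate was set on BST2 protein, and no difference in Bst2 transcript was called.

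**Figure D1:**
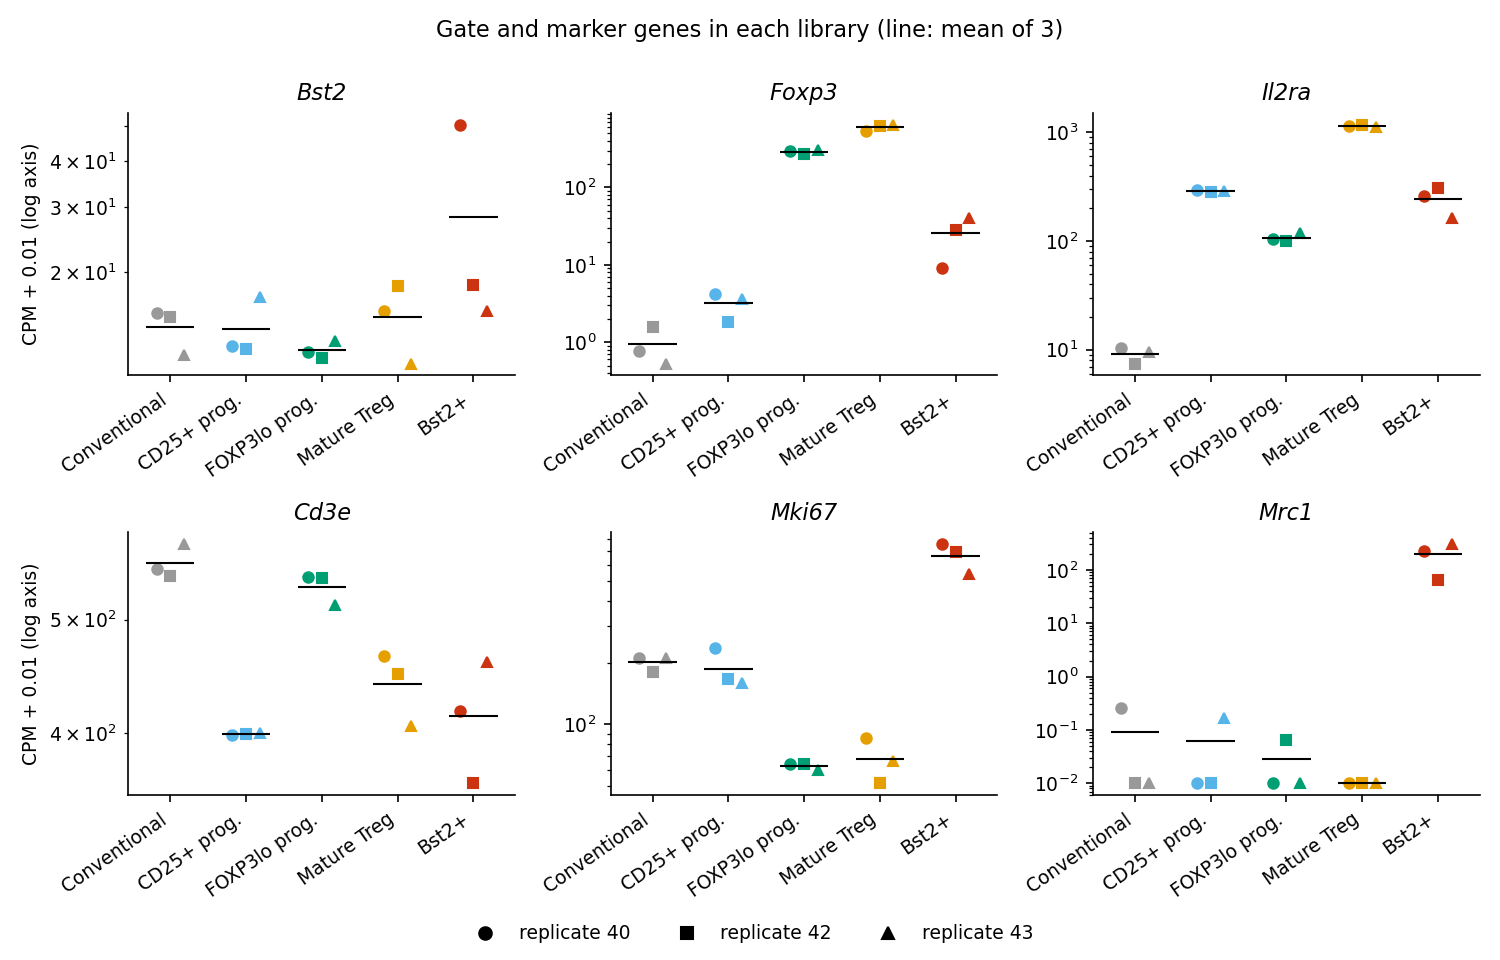
CPM plus 0.01 on log axes for 6 gate and marker genes, by gate, with 1 symbol per replicate and a line at the mean of 3 libraries. Bst2 is high in 1 Bst2+ library only, Foxp3 lies between the CD25+ progenitor and the FOXP3-expressing gates, Cd3e lies within the range of the other gates or just below it, and Mki67 and Mrc1 are higher in all 3 Bst2+ libraries than in any other library.

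Foxp3 measured 9.10, 28.1 and 40.2 CPM in Bst2+, where the CD25+ progenitor, FOXP3lo progenitor and mature Treg means were 3.20 ± 1.24, 290.0 ± 15.9 and 598 ± 59.7 (SD, n = 3). Every Bst2+ library was above the CD25+ progenitors and below both FOXP3-expressing gates, and the log2 fold changes against the 3 gates were 3.04 ± 0.40, -3.47 ± 0.35 and -4.52 ± 0.37. Against the mean of the 3 gates on the log2 scale, Foxp3 fell by 1.65 ± 0.30 (edgeR adjusted p = 0.000414, limma adjusted p = 0.00166). The ratio of pooled CPM, in which the gates with most Foxp3 weigh most, was 0.102. In a bulk library, fewer FOXP3-expressing cells and less Foxp3 RNA per cell cannot be told apart. Il2ra, which encodes CD25, measured 261, 308 and 163 CPM against gate means of 289 ± 6.84, 107 ± 9.12 and 1152 ± 29.3. It was called lower, -0.43 ± 0.13 (edgeR adjusted p = 0.0166, limma adjusted p = 0.0106), and this call was lost without Bst2+ library 43, at -0.22. The 3 gates differed in this gene: the log2 fold changes of Il2ra against CD25+ progenitors, FOXP3lo progenitors and mature Tregs were -0.24 ± 0.16, 1.19 ± 0.16 and -2.24 ± 0.17.

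The other gate genes bear on the lineage label. Cd4 measured 565, 488 and 752 CPM against 521 to 713 in the comparators. Cd3e, a chain of the CD3 signalling complex, measured 418, 363 and 460.5 CPM against 398 to 543, and neither gene was called. Cd8a measured 5.56, 36.7 and 22.1 CPM against 1.84 to 24.1, and Cd8b1 11.4, 23.7 and 43.1 against 11.98 to 22.5, and neither was called, although Cd8a was called higher with the replicate number as a block, at a log2 fold change of 1.49. Nt5e, which encodes CD73, was at 0 in libraries 40 and 42 and at 6.30 CPM in library 43, against 3.39 to 12.8 in the comparators. The TCR beta constant gene Trbc1 was called higher by 0.47 ± 0.08, but this call was lost when any 1 of the 3 Bst2+ libraries, CD25+ progenitor library 40 or mature Treg library 40 or 42 was left out, and Trbc2, a near-identical copy, was not called (0.15 ± 0.11).

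Across all genes, 1448 were called higher in Bst2+ (9.01% of those tested) and 773 lower (4.81%). Each count of list members called against the mean of the gates, given below, stands beside these shares. By edgeR alone, without the gate-specific spread, 3099 (19.3%) and 3187 (19.8%) passed. Of the genes called by both tests, 1103 and 228 differed by more than 2-fold. All 3 Bst2+ libraries lay above all 9 comparator libraries for 1003 of the genes called higher, and below them for 497 of those called lower. Over all tested genes, these separations held for 7.65% and 10.5%. The genes called higher were of unlike kinds: 314 had a mean under 1 CPM in each of the 3 comparator gates and 694 a mean over 5 CPM in each. The filter on low counts passed 715 tested genes only through Bst2+, and 264 of these were called higher. For them a higher level was largely set by the filter. Among the other 15354 tested genes, 1184 were called higher and 773 lower. Leaving out 1 library at a time left 1254 to 1510 genes higher, while the number lower was 392 without Bst2+ library 42, and up to 781 otherwise. The median log2 fold change of all tested genes was -0.03.

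**Figure D2:**
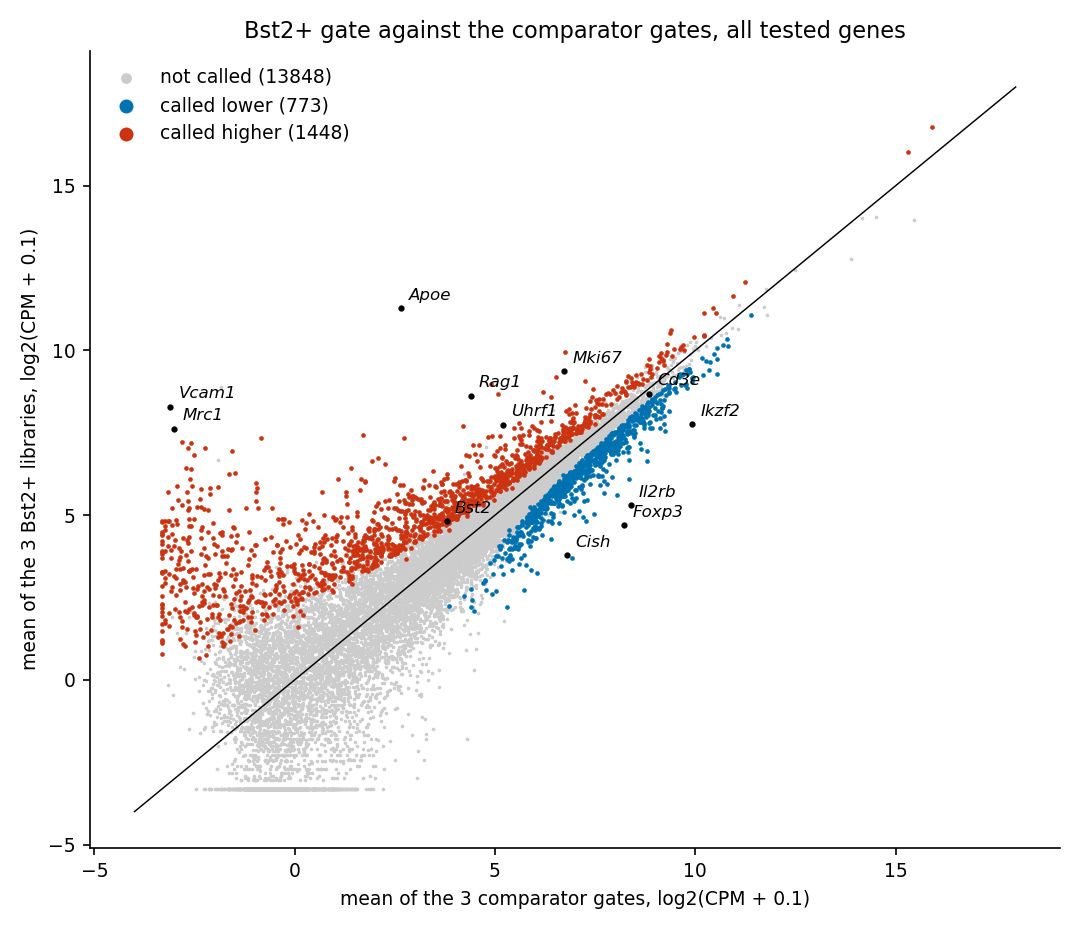
Each of 16069 tested genes is placed by the mean CPM of the 3 Bst2+ libraries against that of the 3 comparator gates. Both means were taken in CPM and are shown as log2(CPM + 0.1). Genes called higher are red, those called lower are blue, and the diagonal marks equal levels. Genes called higher form a cloud at left, at or near 0 in the comparators, and a band along the diagonal, while genes called lower lie where comparator levels are moderate or high. Of the genes called higher, 264 passed the filter on low counts only through Bst2+.

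**Figure D3:**
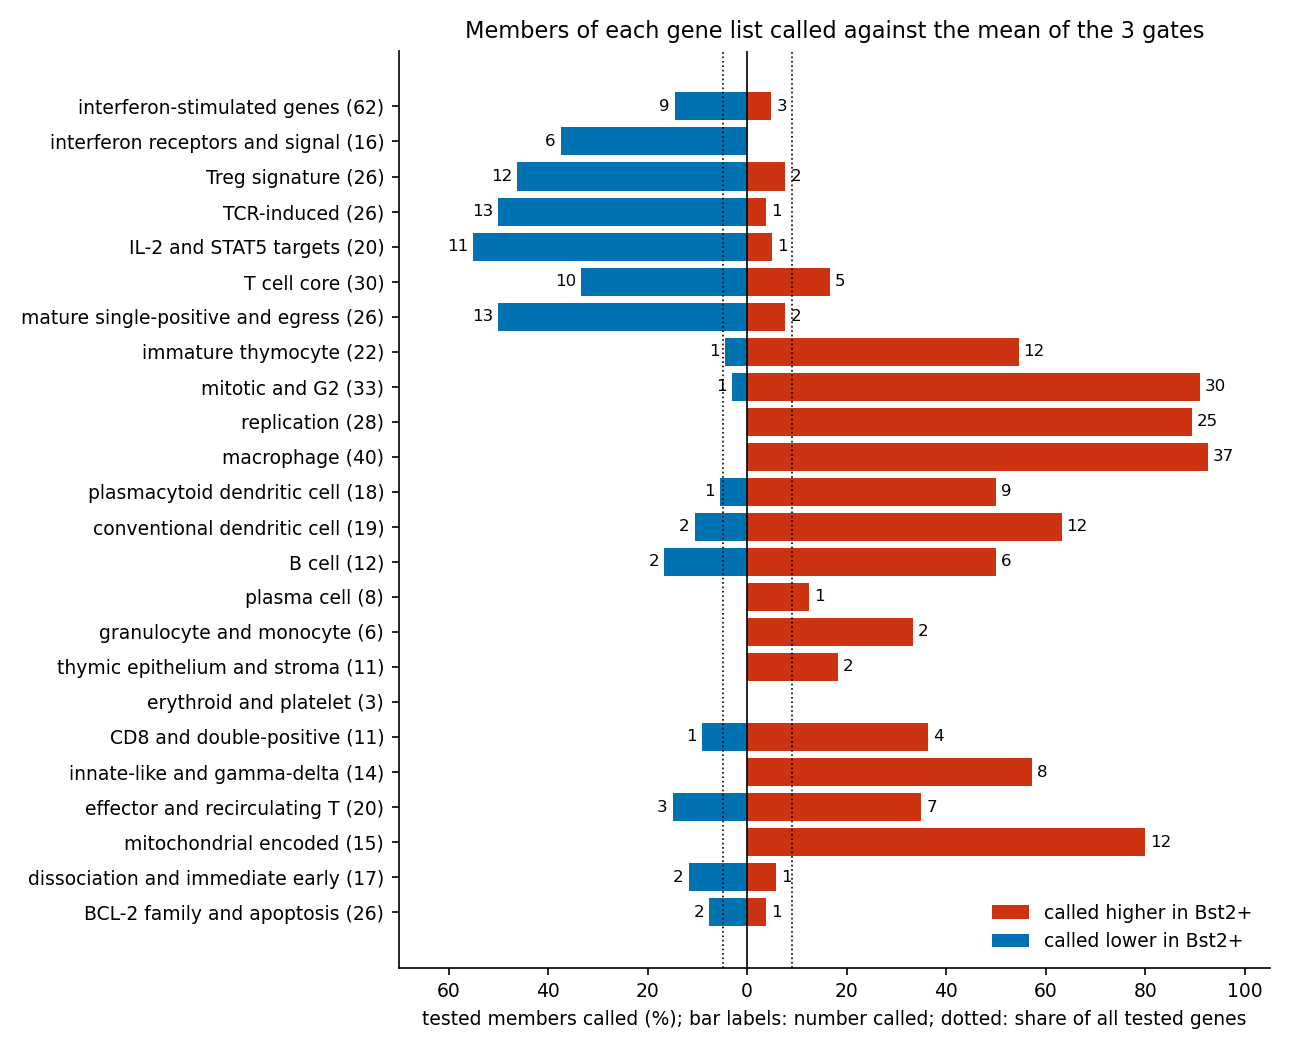
Share of the tested members of 24 gene lists (number tested in brackets) called higher or lower in Bst2+, with bar labels giving the number and dotted lines the shares over all tested genes (9.01% and 4.81%). Mitotic, replication, macrophage and mitochondrial lists stand far to the right, and the Treg, TCR-induced, IL-2 and mature single-positive lists to the left. Of the 40 tested macrophage genes, 26 passed the filter on low counts only through Bst2+.

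Most genes of cell division were higher in Bst2+. Of 33 tested genes of mitosis and G2, 30 were called higher (9.01% of all tested genes were) and 1 lower, with a median log2 fold change of 2.47. Mki67 (ENSMUSG00000031004, GRCm38 chromosome 7, 135689784 to 135716361), whose product coats mitotic chromosomes and marks cycling cells, measured 753, 694 and 541 CPM in Bst2+ and 51.7 to 234 (median 66.7) in the comparators. The groups did not overlap, and the log2 fold change was 2.84 ± 0.13 (edgeR adjusted p = 1.1e-10, limma adjusted p = 1.3e-07). Top2a, the topoisomerase that untangles replicated DNA, measured 316, 449 and 382 CPM against 40.2 to 181, a log2 fold change of 2.41 ± 0.10 (edgeR adjusted p = 1.1e-10, limma adjusted p = 2.95e-19). Birc5, the survivin subunit of the chromosomal passenger complex, measured 37.4, 40.3 and 46.5 against 1.52 to 8.73, at 3.56 ± 0.19. The spindle genes Kif23, Kif11, Cenpf, Tpx2 and Bub1 rose by 2.56, 2.80, 2.88, 2.56 and 2.64 on the log2 scale. The mitotic cyclin gene Ccnb1 and the spindle kinase gene Aurka were less even between libraries. Ccnb1 measured 3.93, 31.8 and 11.6 CPM and Aurka 2.20, 20.2 and 17.2 CPM, with library 40 lowest, and both were called higher. The 1 member called lower was Smc4, a condensin subunit, at 1252, 1073 and 1036 CPM against gate means of 861, 2657 and 1859.7, a log2 fold change of -0.53 ± 0.06, while its partner Smc2 rose by 1.23.

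DNA replication genes followed, with 25 of 28 called higher and a median log2 fold change of 1.4. Uhrf1, which carries DNA methylation through replication, measured 179, 273 and 192 CPM against 7.66 to 86.9 (median 24.0) in the comparators, and rose by 3.08 ± 0.14 (edgeR adjusted p = 1.1e-10, limma adjusted p = 2.08e-19). Rrm2, a subunit of ribonucleotide reductase, measured 48.2, 77.0 and 53.1 against 3.56 to 24.7 (2.80 ± 0.19). Pola1, the catalytic subunit of DNA polymerase alpha, rose by 1.74 ± 0.13, and Pcna, the sliding clamp, by 1.12 ± 0.09. The 6 subunits of the MCM helicase, Mcm2 to Mcm7, rose by 0.73 (Mcm7) to 1.11 (Mcm3). Among the 25 replication genes called, the highest Bst2+ library was library 42 for 16, library 40 for 7 and library 43 for 2. Without Bst2+ library 42, 18 replication genes were called higher.

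The comparator gates themselves differed in these genes. CD25+ progenitors were the comparator nearest to Bst2+ for 30 of the 30 mitotic genes called higher and for 24 of the 25 replication genes. They were also nearest for 964 of all 1448 genes called higher. Mki67 had gate means of 187 ± 41.4, 62.5 ± 2.41 and 67.9 ± 16.9 CPM in CD25+ progenitors, FOXP3lo progenitors and mature Tregs, and the log2 fold changes against them were 1.83 ± 0.17, 3.40 ± 0.19 and 3.29 ± 0.19. Against each gate alone, with the same Bst2+ libraries in each comparison, mitotic genes called higher numbered 23, 31 and 30 of 33, and replication genes 11, 27 and 24 of 28. Over all tested genes, 6.29%, 11.8% and 8.92% were called higher against these 3 gates. The median log2 fold change of the replication list was 0.71 against CD25+ progenitors and 2.18 against FOXP3lo progenitors. Transcripts of a macrophage list were also higher in Bst2+. The list summed to 7668, 4430.2 and 8935 CPM in the Bst2+ libraries and to 309.6 to 640.0 in the comparators. Its part in the division genes, and in the T lineage differences given next, was not tested.

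Genes of immature thymocytes were also higher, 12 of 22 with 1 lower and a median of 1.15. Rag1, a subunit of the recombinase that assembles TCR genes, measured 332, 534 and 324 CPM in Bst2+, against gate means of 57.9 ± 15.95, 2.24 ± 0.425 and 2.60 ± 0.665 (SD, n = 3). Every Bst2+ library was above every comparator library, and the log2 fold change was 5.83 ± 0.32 (edgeR adjusted p = 1.14e-09, limma adjusted p = 1.16e-09). Rag2 measured 24.2, 18.3 and 11.7 CPM against 0 to 5.55. Dntt, which adds untemplated bases at the junctions of receptor genes, measured 506, 654 and 351 CPM against 2.59 to 89.6 and rose by 5.13 ± 0.18. Arpp21, a marker of double-positive thymocytes, rose by 4.37 ± 0.22, and Ptcra, the pre-TCR alpha chain of early thymocytes, from 0 to 4.62 CPM to 28.0, 25.9 and 5.61.

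Cd24a, a surface protein lost as thymocytes mature, measured 102, 127 and 87.2 CPM against 13.7 to 107 and rose by 1.78 ± 0.12 (edgeR adjusted p = 8.76e-09, limma adjusted p = 2.04e-10). Its mean in CD25+ progenitors was 101 CPM, and it was not called against that gate alone. Itm2a, Sox4 and Cd1d1 were not called, at 0.40, -0.15 and -0.01. Id3, an inhibitor of E protein transcription factors induced by TCR signals, was the 1 member called lower (-1.06), a call lost without Bst2+ library 42 or 43. In summed level, the immature list reached 4945, 5275 and 4912 CPM in Bst2+, above the comparators (2393 to 3731) and near conventional CD4 single-positive cells, 4703 to 5483. Members called higher numbered 10 to 12 with 1 Bst2+ library left out.

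Some transcripts of other T cell lineages were higher too. The list for CD8 and double-positive cells, which shares Rag1, Dntt and other members with the immature list, had 4 of 11 higher and 1 lower. Those higher were Rag1, Dntt and Ptcra, all given above, and Gzma. Gzma, a granule protease of cytotoxic cells, measured 19.4, 45.8 and 18.7 CPM against 0 to 3.38, and Ctsw, a cathepsin of cytotoxic cells, was the member called lower (-1.42). The innate-like and gamma-delta list had 23 members found and 14 tested, 1 of them passing the filter on low counts only through Bst2+, and 8 were higher. The gamma constant gene Trgc2 measured 67.4, 93.3 and 34.5 CPM against 0.173 to 17.3 in the comparators. Trgc4 measured 31.5, 46.5 and 18.98 against 0 to 6.10, and Trgc1 32.7, 57.3 and 11.4 against 0 to 8.48. All 3 were highest in library 42 and lowest in library 43, and being related copies they can share reads. The delta constant gene Trdc measured 35.6, 91.8 and 27.7 CPM against 9.44 to 15.6 and rose by 2.05 ± 0.26. Sox13, a transcription factor of gamma-delta precursors, measured 12.8, 3.64 and 13.8 against 0 to 3.58. The defining marker of innate-like T cells, Zbtb16, was at 0 in libraries 40 and 43 and at 1.46 CPM in library 42. Il17rb, a receptor for IL-25, rose by 2.46 ± 0.24 and stood in conventional cells at a mean of 48.2 CPM, above its 23.1 in Bst2+.

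Treg genes were lower. Of 26 tested members of the Treg signature 12 were called lower (4.81% of all tested genes were) and 2 higher, with a median of -1.25. Summed over the list, the Bst2+ libraries held 792, 966 and 960.3 CPM, the comparators 1882 to 4861, and conventional cells 562 to 606. Ikzf2, which encodes the transcription factor Helios, measured 167, 287 and 198 CPM against 564 to 1264 (median 1102), and fell by 2.09 ± 0.13 on the log2 scale (edgeR adjusted p = 4.24e-09, limma adjusted p = 2.12e-10). Its level in Bst2+ was below every comparator library, including the FOXP3-negative CD25+ progenitors at 1158 ± 48.7 CPM. Ikzf4, which encodes the related factor Eos, measured 9.97, 24.4 and 50.8 against 80.5 to 230.5. Lrrc32, which encodes GARP, the docking protein for latent TGF-beta, measured 4.31, 19.1 and 15.2 against 23.5 to 294.

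TNF receptor genes were among the falls. Tnfrsf9 (4-1BB) measured 37.1, 56.9 and 52.1 CPM against 132 to 473, Tnfrsf1b (TNFR2) 56.9, 67.9 and 57.6 against 148 to 263, and Tnfrsf4 (OX40) 50.5, 70.8 and 63.9 against 90.1 to 396. In none of the 3 did the Bst2+ libraries overlap the comparators, and they fell by 2.28, 1.69 and 1.65 on the log2 scale. Tnfrsf18 (GITR) fell by 1.25 and Ctla4, an inhibitory receptor of Tregs, by 1.22. The largest fall of a non-overlapping gene and at or above 5 CPM on average in the comparators was that of Tnfrsf25 (DR3), another member of the family, at 5.37, 5.09 and 3.03 CPM against 18.5 to 58.6, a fall of 3.03 ± 0.22 on the log2 scale (edgeR adjusted p = 2.18e-08, limma adjusted p = 0.00348). The 2 Treg list members called higher were Entpd1, which encodes the ecto-enzyme CD39 (45.2, 26.9 and 70.4 CPM against 0.168 to 7.25), and Fgl2, a fibrinogen-like secreted protein (7.48, 15.4 and 8.64 against 0 to 0.164). Of these 2, 1 passed the filter on low counts only through Bst2+, so that a higher level there was largely set by the filter. Both genes are also known from macrophages, whose list sum differed between the gates as given above, and its part in these values was not tested.

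Against the single gates, which share the Bst2+ libraries, Treg genes called lower numbered 9 for CD25+ progenitors, 10 for FOXP3lo progenitors and 16 for mature Tregs, where 2.86%, 8.36% and 6.03% of all tested genes were called lower. The medians were -0.40, -0.83 and -2.26. Ikzf2 differed by -2.41 ± 0.15, -1.46 ± 0.14 and -2.41 ± 0.15 and Lrrc32 by -1.97 ± 0.30, -1.0 ± 0.30 and -4.46 ± 0.33 in that order of gates. Gpr83, an orphan receptor of Tregs, had 18.7, 15.8 and 23.8 CPM in Bst2+ against gate means of 12.7, 41.1 and 200.3, and Capg, an actin-capping protein, 19.2, 22.8 and 29.7 against 14.5, 14.9 and 61.1. Some Treg genes thus stood near the level of the progenitors, and others below all 3 gates.

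Of 20 IL-2 signalling genes, 11 were called lower and 1 higher, with a median of -0.69. Il2rb, the receptor beta chain shared by IL-2 and IL-15, measured 14.8, 34.4 and 68.3 CPM in Bst2+ and 159 to 678 (median 185) in the comparators. Every Bst2+ library was below every comparator library, with library 40 lowest, and the fall was 2.78 ± 0.31 on the log2 scale (edgeR adjusted p = 2.68e-06, limma adjusted p = 2.63e-08). Cish, a feedback inhibitor induced by STAT5, measured 5.46, 16.8 and 18.7 against 51.6 to 211 and fell by 2.77 ± 0.24 on the log2 scale (edgeR adjusted p = 2.41e-07, limma adjusted p = 3.4e-06). Jak3, the kinase of the common gamma chain, measured 39.6, 26.8 and 29.4 against 78.5 to 169 (-1.92 ± 0.12), and Stat5a 33.3, 128 and 82.6 against 152 to 305 (-1.38 ± 0.24). Lta, a TNF family cytokine, measured 0.671, 9.62 and 8.89 against 21.5 to 51.1, a call that was lost without Bst2+ library 42 or 43. The member called higher was Il7r, the IL-7 receptor alpha chain, at 172, 225 and 210.1 CPM against 34.1 to 71.97 and 2.02 ± 0.15. Against CD25+ progenitors alone 6 members were lower and 2 higher, with a median of -0.19, against FOXP3lo progenitors 11 and 1 (-0.70), and against mature Tregs 14 and 1 (-1.32). Among the 12 IL-2 list members called against the mean, 11 had their lowest Bst2+ level in library 40.

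Of 26 genes induced by TCR signals, 13 were lower and 1 higher, with a median of -0.86. Nr4a3 and Nr4a1, nuclear receptors that rise soon after TCR ligation, did not overlap between the groups. Nr4a3 measured 112, 139 and 109 CPM against 232 to 416, Nr4a1 measured 79.4, 123 and 148 against 184 to 458, and they fell by 1.38 and 1.14 on the log2 scale. Rel, the NF-kB subunit c-Rel, fell by 1.19 ± 0.09 on the log2 scale (edgeR adjusted p = 2.18e-08, limma adjusted p = 2.27e-07), and Cd200 and Pdcd1 (PD-1) by 1.47 and 1.32. Cd5 and Cd6, which dampen TCR signalling and stand in the T cell core list too, fell by 1.03 and 1.23. Against CD25+ progenitors alone 16 members were lower, against FOXP3lo progenitors 14 and against mature Tregs 9. Cd69, an early activation antigen, had 117, 92.3 and 95.0 CPM against 99.1 to 122 and was not called, nor was Myc (0.28 ± 0.10) or Egr3 (0.02 ± 0.31). The 1 member called higher was Dusp6, a phosphatase of ERK, at 92.4, 50.9 and 68.7 CPM against 21.4 to 46.0.

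The other genes among the 12 largest falls of non-overlapping genes were Rgs16, a regulator of G protein signals (-2.82), Rarg, a retinoic acid receptor (-2.57), Dusp4, a MAP kinase phosphatase (-2.30), Hdac10, a deacetylase (-2.36), and Adck2 (-2.20). Rgs16 measured 2.88, 7.52 and 9.08 CPM against 25.2 to 94.9, and Dusp4 11.4, 34.9 and 52.6 against 83.7 to 274. The calls of Hdac10 and Adck2 were lost when Bst2+ library 42 or 43 was left out, and that of Hdac10 also without library 40.

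Interferon-stimulated genes were mostly not called. Of 62 tested, 9 were called lower and 3 higher, where 4.81% and 9.01% of all tested genes were, with a median of -0.16. The numbers were 4 lower without Bst2+ library 42 and 5 higher without library 40. With the replicate number as a block, 15 were called lower. The list sum was 5162, 4506 and 4951 CPM in Bst2+ and 3624 to 8342 in the comparators. Those called higher were Gbp3, an interferon-induced GTPase (29.3, 25.5 and 27.2 CPM against 4.24 to 26.1), and the IFI200 family genes Ifi204 (20.2, 5.90 and 14.2 against 0 to 0.493) and Ifi211 (7.09, 2.51 and 1.26 against 0 to 0.230). Of these 3, 2 passed the filter on low counts only through Bst2+. Lower were Ifi206 (-0.84 ± 0.11), the GTPase gene Igtp (-0.83 ± 0.11) and the nuclear body gene Sp110 (-0.54 ± 0.09), the last not without Bst2+ library 40 or 43. Isg15, a ubiquitin-like modifier, measured 38.0, 21.4 and 12.9 CPM against 14.9 to 29.6. Ifit1, an RNA-binding antiviral protein, measured 88.5, 43.2 and 65.1 CPM against 44.4 to 162, and neither was called. Upstream of these genes, the receptor chain Ifnar1 measured 95.7, 109 and 166 CPM against 173 to 232, and fell by 0.74 ± 0.12 on the log2 scale (edgeR adjusted p = 0.000138, limma adjusted p = 0.000952). Stat2 and Irf9, subunits of the interferon-activated transcription factor complex, fell by 0.84 and 0.80. In all, 6 of 16 receptor and signalling genes were lower, among them Jak1, a kinase of interferon and cytokine receptors, whose call was lost without Bst2+ library 40 or 42. Against CD25+ progenitors alone 2 of the 16 were lower and 1 higher, with Stat2 at -0.16 and Irf9 at -0.26, neither called. Against FOXP3lo progenitors and against mature Tregs 10 were lower.

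The 3 gates gave unlike values. Against CD25+ progenitors alone, 14 of the 62 interferon-stimulated genes were called higher and 1 lower. Against FOXP3lo progenitors 3 were higher and 30 lower, and against mature Tregs 2 and 21. The medians were 0.48, -0.70 and -0.40, with all 3 comparisons resting on the same Bst2+ libraries. Ifit1 had a Bst2+ mean of 65.6 ± 22.6 CPM and gate means of 46.4 ± 2.1, 149 ± 19.4 and 123 ± 18.1. Ifi206 differed from the 3 gates by 0.28 ± 0.12, -1.54 ± 0.12 and -1.27 ± 0.12, above 0 for CD25+ progenitors and below 0 for the others.

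Genes that thymocytes acquire as they mature and leave the thymus also differed by gate. Against the mean of gates, 13 of 26 were lower and 2 higher, with a median of -0.61, and 8 were lower without Bst2+ library 42. S1pr1, the receptor for the lipid that guides exit from the thymus, measured 116, 134 and 139 CPM in Bst2+, against gate means of 75.8 ± 9.41, 616 ± 4.50 and 505 ± 9.08. All 3 Bst2+ libraries were above the CD25+ progenitors and below both FOXP3-expressing gates, and the log2 fold changes against the gates were 0.78 ± 0.10, -2.25 ± 0.10 and -1.96 ± 0.10. Gimap3, a GTPase of lymphocyte survival, measured 128, 120.3 and 125 against 107, 684 and 551, and the class I gene H2-K1 529, 652 and 635 against 632, 1450.3 and 1425. For all 13 genes called lower, CD25+ progenitors were the nearest of the 3 gates, as they were for 520 of all 773 genes called lower. Against that gate alone 13 of the 26 were higher, against FOXP3lo progenitors 1 was higher and 22 lower, and against mature Tregs 2 and 19. Klf2 and Foxo1, transcription factors upstream of S1pr1, fell by 0.77 and 1.00 against the mean.

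**Figure D4:**
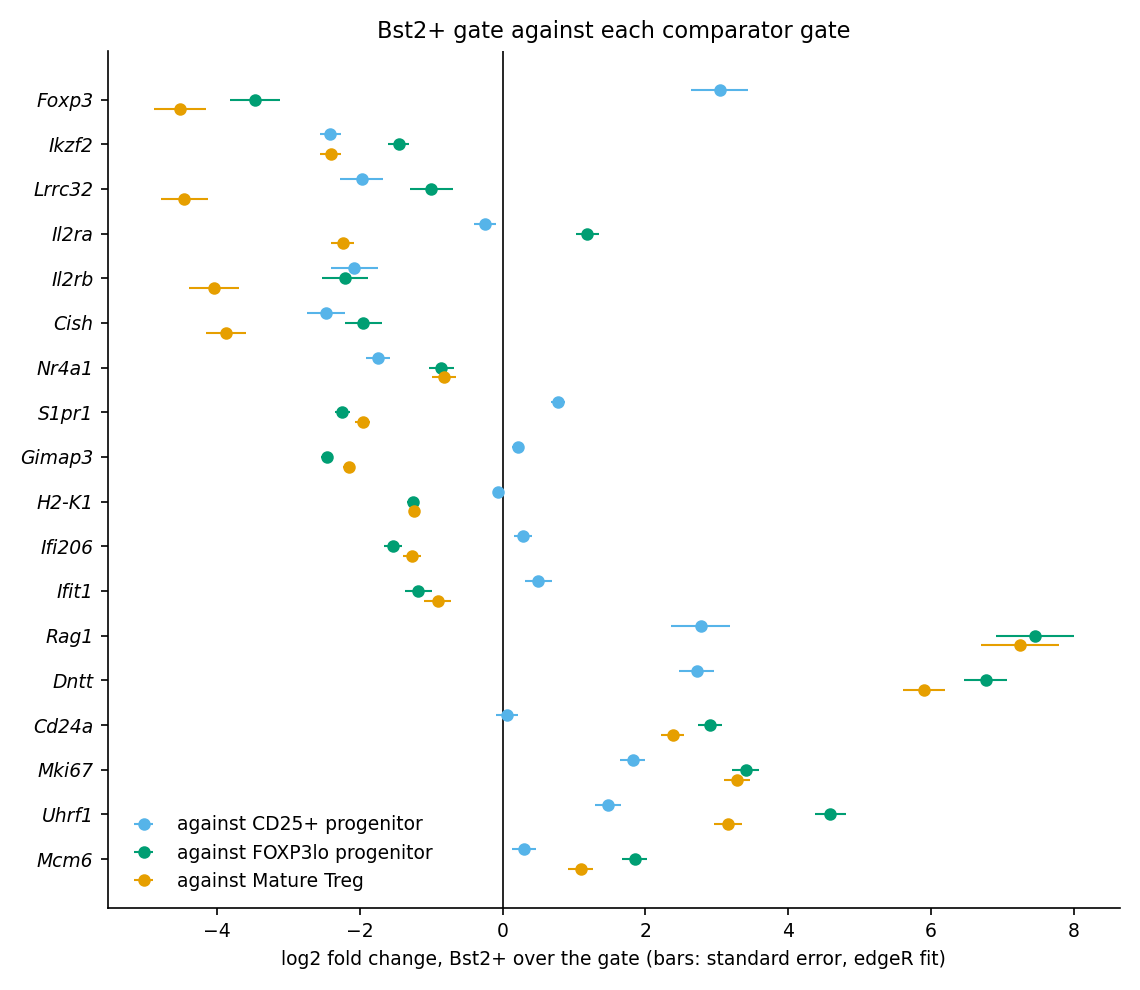
Log2 fold change of Bst2+ over each comparator gate separately for 18 genes, with bars of 1 standard error from the edgeR fit, where the 3 values of a gene share the Bst2+ libraries. Foxp3, S1pr1, Gimap3, Ifi206 and Ifit1 lie right of 0 against CD25+ progenitors and left of it against the other gates, Ikzf2, Il2rb and Cish lie left of 0 against all 3, and Mki67, Rag1 and Dntt lie right of it against all 3.

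The T cell identity of the libraries was read from 30 core genes, of which 5 were higher, 10 lower and 15 not called, with a median of -0.19. Without Bst2+ library 42 or 43, 3 were higher. Lck, the proximal TCR kinase, measured 542, 528 and 494 CPM against 430.0 to 607, Cd247, the CD3 zeta chain, 279, 387 and 383 against 296 to 372, and Lat, the adaptor of activated T cells, 244, 310.1 and 309.9 against 230.3 to 381. These 3 and Cd3d, Cd3e and Ikzf1 were not called, and their levels in Bst2+ were within or close to the comparator range. Thy1, a surface glycoprotein of thymocytes, measured 304, 343 and 245 CPM against 98.4 to 136, without overlap, and rose by 1.37 ± 0.09 (edgeR adjusted p = 5.74e-09, limma adjusted p = 2.79e-11). Cd3g rose by 0.91 ± 0.10 and the adaptor gene Sh2d1a by 1.10 ± 0.14. Zap70, the kinase recruited to phosphorylated CD3, measured 58.9, 81.2 and 104 against 108 to 217 and fell by 0.89 ± 0.13 on the log2 scale (edgeR adjusted p = 5.47e-05, limma adjusted p = 0.0018), and the costimulatory receptor Cd27 fell by 0.75.

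Most macrophage transcripts were at or near 0 in the comparators and present in all 3 Bst2+ libraries. Of the 47 members of the macrophage list found in the table, 29 stayed under 1 CPM in every comparator library and 6 were at 0 in all of them. The filter on low counts passed 40, of which 26 passed only through their level in the Bst2+ libraries, so that a higher level there was largely set by the filter. Of the 14 that the other libraries would have passed by themselves, 12 were called higher and none lower, against 1184 of 15354 such genes overall. Over all 40, 37 were called higher, and 37 with any 1 Bst2+ library left out. Mrc1 (ENSMUSG00000026712, GRCm38 chromosome 2, 14229392 to 14332057), the mannose receptor, measured 229, 64.0 and 301 CPM in Bst2+ and rested on 4 counts in the 9 comparator libraries together, at 0 to 0.159 CPM. The ratio of pooled CPM was 7737 (95% counting interval 3022 to 28398), and the difference was called (edgeR adjusted p = 4.98e-10, limma adjusted p = 8.12e-06). Vcam1, an adhesion molecule of iron-recycling and thymic macrophages, measured 309, 179 and 452 CPM against 2 counts in all, a ratio of 24521 (95% counting interval 6788 to 202475). The 3 chains of complement C1q were in the same position. C1qa measured 133, 86.4 and 171 CPM against 0 to 0.447, C1qb 115, 125 and 151 against 0 to 0.447, and C1qc 142, 121 and 185 against 0 to 0.391.

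Apoe, the lipid carrier apolipoprotein E, measured 2879.8, 1576 and 3037 CPM against 4.34 to 10.95 (median 5.59), a log2 fold change of 8.69 ± 0.19 (edgeR adjusted p = 1.01e-14, limma adjusted p = 2.32e-09). Slc40a1, the iron exporter ferroportin, measured 158, 78.9 and 202 against 0 to 0.318, and Axl, a receptor for dying cells, 111, 112 and 260.0 against 3.18 to 13.4. Mertk and Timd4, which serve the same uptake, were at most at 0.447 and 0.168 CPM in a comparator library. In Bst2+ Mertk measured 48.0, 41.2 and 66.7 CPM and Timd4 30.7, 29.2 and 18.3 CPM. Spic, a transcription factor of iron-recycling macrophages, measured 20.8, 11.4 and 23.8 CPM with no count in the comparators, which makes it at least 953-fold higher with 3 counts in the 9 libraries together taken as the floor. Of the defining markers, Adgre1 (F4/80) measured 50.5, 28.7 and 54.5 CPM, the growth factor receptor gene Csf1r 34.8, 55.8 and 141 CPM, and the lysosomal gene Cd68 109, 57.7 and 91.0 CPM. Members at or near 0 in Bst2+ were Marco, at 0 in all 3 libraries, and Folr2, Vsig4 and Cd14, at or under 1.92 CPM in each. Lysosomal genes that T cells also express differed less: Ctsb, Ctsd and Ctss rose by 2.68, 1.75 and 1.08 on the log2 scale, the last with overlapping libraries.

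Most of these genes were ordered alike over the Bst2+ libraries. Of the 37 members called, 26 were highest in library 43, 10 in library 40 and 1 in library 42, and 28 were lowest in library 42. The median ratio of the highest to the lowest Bst2+ library was 2.35. Mki67, Rag1 and Ikzf2 in the same 3 libraries had other orders, given above, and any link of these genes to the macrophage list was not tested.

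The 12 largest rises among all non-overlapping genes held Vcam1, Mrc1, C1qc and C1qb from this list. All 12 passed the filter on low counts only through Bst2+, so that a higher level there was largely set by the filter. Another was Apoc1, an apolipoprotein, at 66.5, 42.5 and 47.8 CPM against 2 counts in the comparators, a ratio of 3845 (95% counting interval 1065 to 31753). Also among them were Lyz2, lysozyme (115, 93.6 and 160.3 CPM against 0 to 1.96), Igf1, insulin-like growth factor 1 (52.5, 43.4 and 81.7 against 0 to 0.279), and Sirpa, a phagocyte receptor for CD47 (89.1, 69.5 and 179 against 0 to 0.503). Igsf6, Tmem26, Adap2 and Pla2g2d had no count in any comparator library. Igsf6 measured 34.4, 7.12 and 42.6 CPM and was at least 1455-fold higher, Tmem26 18.98, 12.8 and 51.1 and at least 1512-fold, Adap2 33.9, 14.2 and 18.8 and at least 1073-fold, and Pla2g2d, a secreted phospholipase, 26.2, 15.1 and 23.5 and at least 1078-fold.

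Genes of dendritic cells differed within each list. For plasmacytoid dendritic cells, which carry BST2 themselves, 28 members were found and 18 tested, 1 of them passing the filter only through Bst2+. Of the 18, 9 were higher and 1 lower (2 without Bst2+ library 40 or with the replicate block), while the summed level, 1171, 1057 and 1196 CPM, lay inside the comparator range of 533 to 1544. Their defining gene Siglech was at 0 in libraries 40 and 42 and at 1.45 CPM in library 43, and Klk1, Cd300c and Upb1 were at 0 in all 3. Mpeg1, the pore-forming protein of phagocytes, measured 127, 94.9 and 260.4 CPM against 0.0576 to 1.23, Zeb2, a transcription factor of myeloid and effector cells, 102, 56.6 and 123 against 0.403 to 16.7, and Pld4, an endolysosomal nuclease, 25.6, 22.6 and 15.1 against 0 to 5.82. Tcf4, the master regulator of the lineage, rose by 1.41 ± 0.15, at 58.4, 83.0 and 56.6 CPM against 15.3 to 33.3. For conventional dendritic cells 29 members were found and 19 tested. The 4 that passed only through Bst2+ were higher, and of the other 15, 8 were higher and 2, Cd83 and Ccr7, lower, at a summed 844, 803 and 968 CPM against 361 to 527. The class II gene H2-Ab1 measured 70.3, 74.0 and 61.6 CPM against 0.274 to 5.25, H2-Aa 40.4, 19.5 and 23.1 against 0 to 4.13, and their chaperone gene Cd74 80.6, 139 and 130.1 against 7.94 to 45.7. The number lower was 0 without Bst2+ library 42, and 1 without Bst2+ library 40 or 43 or any comparator library other than FOXP3lo progenitor 42. Zbtb46, which marks the lineage, measured 5.18, 0 and 0.946 CPM. Xcr1 and Clec9a, of a cross-presenting subset, were at most at 1.26 and 0.479 CPM, and Cd209a was at 0 in every Bst2+ library.

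B lineage transcripts differed widely between the Bst2+ libraries. The B cell list summed to 463, 1018 and 2642 CPM, against 459 to 583 in the comparators, so that library 40 was at the comparator level and library 43 far above it. Ighm, the IgM heavy chain, measured 60.6, 393 and 774 CPM against 17.9 to 51.3, a log2 fold change of 3.69 ± 0.36 (edgeR adjusted p = 8.03e-07, limma adjusted p = 0.00188). Igkc, the kappa light chain, was at 0 in library 40 and at 265 and 1150.2 CPM in libraries 42 and 43, and with this spread it was not called (edgeR adjusted p = 0.00258, limma adjusted p = 0.179). Of 24 members found, 13 stayed under 1 CPM in every comparator library and 12 were tested. Of these 3 passed the filter only through Bst2+, with 2 called higher, and among the other 9, 4 were higher and 2 lower. Those higher included the signalling genes Blnk (4.12, 18.8 and 14.6 against 0 to 0.777) and Bank1 (31.2, 15.6 and 34.7 against 0 to 2.33). Both falls, of Bach2 and Cd37, which T cells also express, were lost without Bst2+ library 42. The B cell markers Ms4a1 and Pax5 were each at 0 in at least 1 Bst2+ library and at most 9.70 CPM (Ms4a1, library 42).

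Plasma cell genes stood apart by library too. Jchain, the joining chain of IgA and IgM, measured 0, 73.2 and 231 CPM, and Igha, the IgA heavy chain, 0, 2.34 and 328. Library 43 was highest in both, with library 40 at 0. Of 17 members found and 8 tested only Xbp1, a factor of secretory cells, was called higher (9.01% of all tested genes were). Xbp1 measured 78.6, 54.4 and 66.4 CPM against 26.3 to 59.2, a call lost without any 1 of the 3 Bst2+ libraries. The number called higher was 6 without library 40, 2 without library 43 or CD25+ progenitor library 43, and 0 without library 42 or FOXP3lo progenitor library 40. The filter on low counts was rerun for each of these, so the members tested can differ from the 8. Sdc1, a surface marker of plasma cells, was at most 0.0630 CPM, and the list sum was 165, 253 and 753 CPM against 102 to 222.

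Markers of other cell types were fewer. Of 24 granulocyte and monocyte genes found, 18 stayed under 1 CPM in every comparator library and 6 were tested, 1 of them passing the filter only through Bst2+. Those called higher were F13a1, a transglutaminase (53.3, 15.5 and 27.9 CPM against 0.842 to 26.0, with a mean of 48.9 in conventional cells), and Csf3r, the G-CSF receptor (13.9, 0 and 3.22 CPM, no count in the comparators, at least 254-fold higher). The call of Csf3r was lost without library 40 or 43. With any 1 comparator library left out 4 or 5 members were called higher, but the filter was rerun there and the members tested can differ from the 6. S100a8, Camp and Elane were at 0 in all Bst2+ libraries, and the list summed to 89.0, 41.2 and 42.9 CPM against 6.54 to 33.4. Of 26 epithelial and stromal genes found, 11 were tested, 3 of them passing only through Bst2+, and 2 were higher, Cdh5, an endothelial cadherin (8.53, 0.809 and 2.96 CPM against 0 to 0.250), and Pdgfrb, a receptor of pericytes (10.2, 7.68 and 8.83 against 0 to 1.29). Foxn1, Psmb11 and Krt5 of thymic epithelium were at 0 in each. Haemoglobin genes were at or near 0, with Hba-a1 and Hbb-bs at 0 in all 3.

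**Figure D5:**
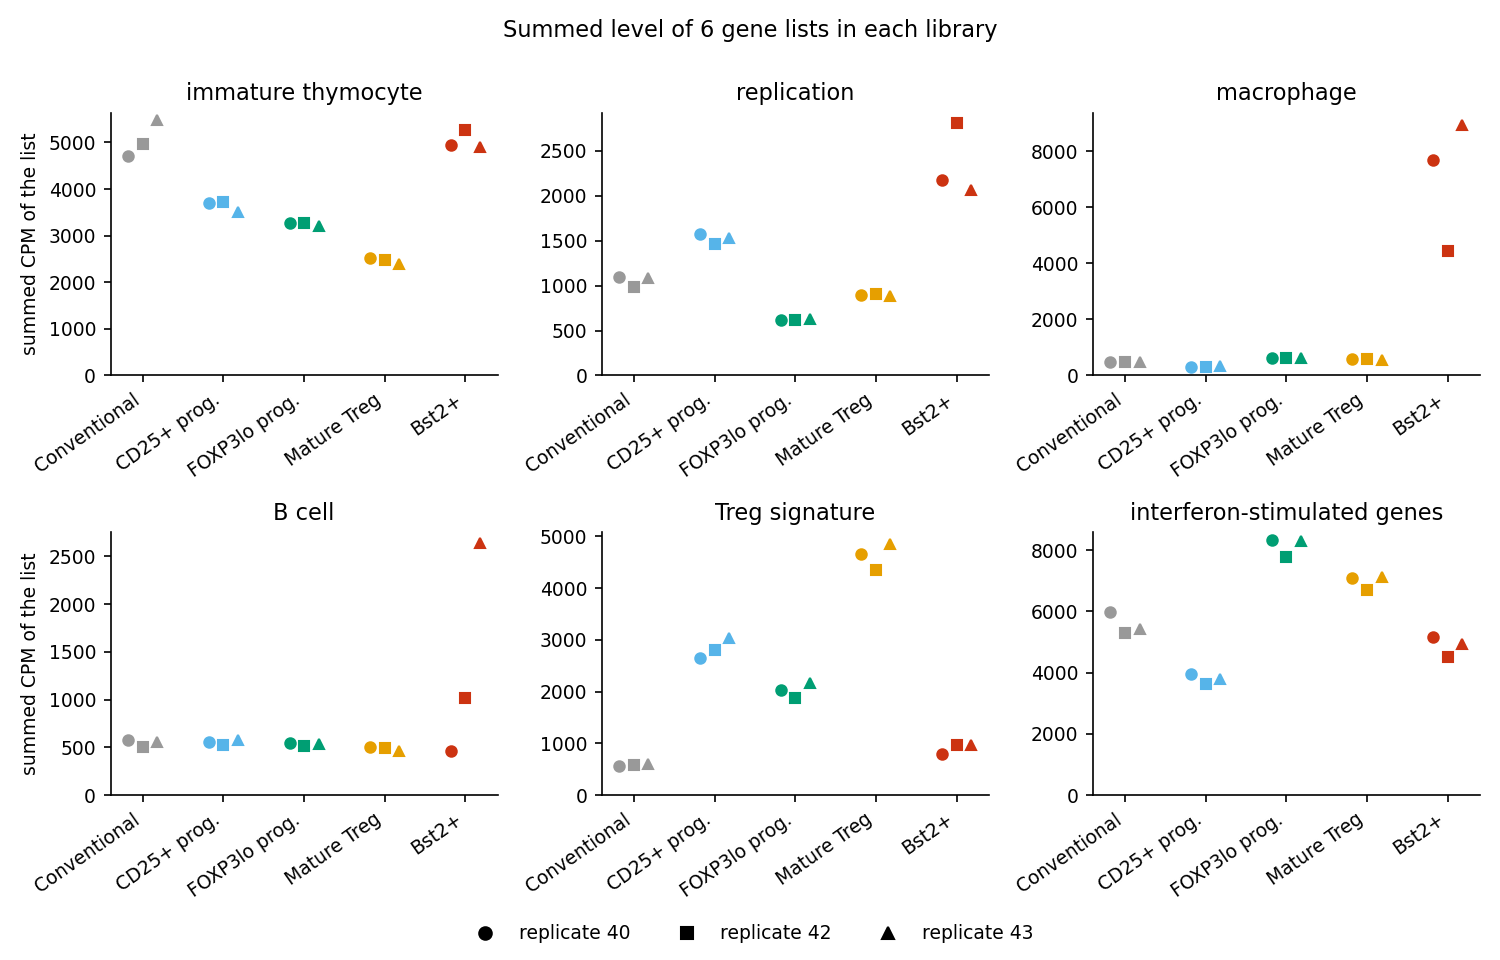
Summed CPM of 6 gene lists in each of the 15 libraries, by gate, with 1 symbol per replicate and axes starting at 0. The Bst2+ libraries are highest for the replication and macrophage lists, below the comparators and near conventional cells for the Treg list, spread from 463 to 2642 CPM for the B cell list, and between CD25+ progenitors and the FOXP3-expressing gates for interferon-stimulated genes.

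Genes of effector and recirculating T cells were mixed. Of 27 found and 20 tested, 3 of them passing only through Bst2+, 7 were higher and 3 lower (9.01% and 4.81% of all tested genes were). Anxa2, a calcium-dependent membrane binder, measured 67.4, 78.3 and 71.6 CPM against 8.18 to 36.1, and the integrin chain Itgb1 210.2, 179.8 and 170.2 against 76.8 to 149, both without overlap. Lgals3, a galectin that macrophages also express, measured 18.2, 13.7 and 13.1 against 0 to 0.0529. Bcl6, the follicular helper factor, and Rora, a nuclear receptor of effector cells, were lower (-1.29 ± 0.17 and -1.58 ± 0.21). Pparg, a lipid-sensing nuclear receptor, measured 31.1, 5.98 and 5.11 CPM, highest in library 40, with no count in the comparators, which makes it at least 621-fold higher. Ccr6, a receptor of recirculating Tregs, measured 0, 3.23 and 10.3 against 4.38 to 45.4 and was not called, and S100a4 was at 0 in every one of these libraries.

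Mitochondrially encoded genes were higher in 12 of 15, with a median of 0.94, and in 5 without Bst2+ library 40 and 6 without library 42. The large ribosomal RNA mt-Rnr2 measured 127995, 124756 and 86676 CPM against 54587 to 70516, and mt-Co1, a subunit of cytochrome oxidase, 3525, 3351 and 2699 against 1651 to 2368. For 11 of the 12 the highest Bst2+ library was library 40 and for 12 the lowest was library 43. This order is not that of most macrophage genes, and a link between them was not tested. Genes induced by dissociation had 2 of 17 lower (4.81% of all tested genes were), Jund (-0.91 ± 0.10) and Nfkbia (-0.92 ± 0.14). The 1 called higher (9.01% of all tested genes were) was the chaperonin gene Hspe1 (0.85 ± 0.13), a call lost without Bst2+ library 42. The number higher was 2 without Bst2+ library 43 or FOXP3lo progenitor library 40 or 42, and 4 with the replicate block. Fos, a usual marker of tissue handling, measured 1.34, 1.86 and 13.05 CPM against 4.62 to 13.2, Fosb measured 1.15, 0.809 and 2.52 against 0.518 to 3.81, and neither was called. Among 26 genes of apoptosis 23 were not called, 2 were lower and 1 higher (4.81% and 9.01% of all tested genes were), with a median of -0.17. The death receptor gene Fas fell by 1.59 ± 0.14 on the log2 scale (edgeR adjusted p = 2.41e-07, limma adjusted p = 0.000345), at 26.4, 17.1 and 17.4 CPM against 48.4 to 68.9. Mcl1, a survival factor, fell by 0.58. Without CD25+ progenitor library 40, or with the replicate block, 4 apoptosis genes were lower. Bcl2 was not called (-0.18 ± 0.07).

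Some transcripts were high in a single Bst2+ library. In library 40 H2ac22, a histone H2A gene, measured 80.4, 1.62 and 5.93 CPM, and Nop10, a subunit of the H/ACA ribonucleoproteins, 91.8, 23.0 and 15.1. In library 42 Abitram measured 9.58, 57.2 and 14.4 CPM and the glycolytic gene Tpi1 19.1, 56.3 and 18.2, against 20.2 to 38.7 and 4.61 to 30.7 in the comparators. In library 43, beside Jchain, Dstn, an actin depolymerising factor, measured 1.82, 12.6 and 51.9 CPM, and Adgre4, an adhesion receptor of macrophages, 13.4, 12.5 and 53.1. Of the 18 genes chosen for such a difference, 5 were called higher over the 3 libraries, H2ac22, Rpl36al, Ccdc148, Plac8 and Adgre4. The calls of Rpl36al (1.95 ± 0.31) and Ccdc148 (2.12 ± 0.36) were lost without library 40. Over the remaining libraries Nop10 was called without library 43, Tpi1 without library 40 or 43 or with the replicate block, Dstn without library 40, and Jchain without library 40 or 43.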

How the data were processed

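The data were 1 deposited table of read counts per gene for 15 libraries, prepared with version 2 of the SMARTer Pico kit for stranded total RNA. The submitters' processing notes name Trimmomatic 0.33, HISAT2 2.1.0 and featureCounts 1.4.6. Per the file headers, the authors used featureCounts 1.6.2 with strand setting 2 and a mapping quality of at least 10, and the gene models are those of Ensembl 97 (GRCm38). All rows of the deposited count table carry an Ensembl identifier, and symbols were given to 36638 of 55573 genes by overlap of position with RefSeq (GRCm38.p6). Of 653 entries in 24 gene lists, 640 were matched. Reads of near-identical genes (TCR and immunoglobulin constants, MHC class I, Gimap and Ifi200 genes) can be split between copies, so their values are uncertain.

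Genes were kept by edgeR's filterByExpr, scaled with TMM and fitted over all 15 libraries in 5 gates with edgeR 4.0.16 (robust quasi-likelihood) and with limma 3.58.1 (voom with quality weights by gate), in R 4.3.3. List members are said to pass only through Bst2+ where fewer than 3 of the 12 other libraries reach the filter's minimum. The conventional cells entered the fits to add to the estimate of spread, and so also the filter and the scaling. A gene was called where both adjusted p (Benjamini-Hochberg over all 16069 tested genes) were under 0.05 with the same sign. The script's tests were checked on simulated data. Ratios of pooled CPM carry 95% counting intervals, which cover counting error only, as do bounds against a floor of 3 counts.

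Genes were named by a rule: the gate genes with Mki67 and Mrc1, the 12 highest and 12 lowest log2 fold changes among called genes without overlap and with at least 5 CPM on the higher side, up to 4 members per list, and 6 genes per Bst2+ library with at least 50 CPM and the largest ratio to the next Bst2+ library. Other list members were named after their values were seen. The members and lists were chosen with earlier results of these data known. Replicate numbers 40, 42 and 43 are those of the biological replicates in the design text, so libraries of 1 number share a replicate across gates. Deviations from the gate means correlated at -0.02 to 0.04 within a number over 18 pairs. Alternatives were other scalings and filters, other tests (DESeq2 1.42.0, limma with equal spread), a replicate block, single comparator gates and leaving out each library. With a library left out the filter on low counts was rerun, so the genes and list members tested can differ from those of the main fit. Reference sequences were not used here.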

Additional observations from a re-analysis of the deposited data

How the results depend on the processing

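The number of genes called higher in Bst2+ (1448) was 747 when tested against a fold of 1.5, 3099 by edgeR alone, 2642 by limma with equal spread and 3548 by DESeq2. The number called lower (773) was 63, 3187, 3906 and 3394 in that order, 1848 with no filter on low counts, 460 against CD25+ progenitors alone and 1344 against FOXP3lo progenitors alone. Leaving out 1 library gave 1254 to 1510 higher and 392 to 781 lower, with the lowest lower count without Bst2+ library 42. The cause was not tested. With other size factors the counts were 1563 higher and 649 lower (RLE) and 1433 and 791 (upper quartile), and with a mean-variance trend for each gate, chosen after seeing the data, 1402 and 733. The replicate block, which pairs libraries by their number, gave 1602 higher and 944 lower. Among the named genes it changed the calls of Cd8a, Tpi1, Cd274, Car2 and Hspa8, which were called with it. Among the named genes that were called, signs of log2 fold changes reversed with a single comparator gate and under no other alternative run. Against CD25+ progenitors Foxp3 was at 3.04, S1pr1 at 0.78, Ifi206 at 0.28, Jak1 at 0.21 and Gimap3 at 0.21, and against FOXP3lo progenitors Il2ra was at 1.19. Of the named genes not called, Bcl2 (-0.18) was called higher against CD25+ progenitors at 0.45 and Irf4 (-0.17) against FOXP3lo progenitors at 1.12. Irf4 was also called lower against CD25+ progenitors, at -1.28. Abitram was at 0.13 by edgeR and at -0.29 by limma. The median of the granulocyte and monocyte list turned from 1.59 to -1.62 without Bst2+ library 42, where the filter was rerun and the members tested can differ.

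Of the 16069 tested genes, 984 were at 0 in 1 Bst2+ library and at 5 CPM or more in another. Intervals on ratios cover counting error only. The make-up of the Bst2+ gate by CD25 and FOXP3 was not analysed here.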
